A study of Homo sapiens with 3 samples.

Results

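Autophagy and lysosome genes were followed in GFP-SAS cells, named for the SAS cell line, which comes from a human tongue carcinoma and is widely used, after a small interfering RNA (siRNA) against AKT1. They were 43 genes, chosen by name with earlier results of these data known, of 18239 genes that the arrays measured. Each gene was represented by 1 probe set, the brightest by mean log2 value over the 3 libraries among those annotated to that gene alone. Cells had been treated with 10 nM of siRNA for 24 h, and each treatment gave 1 library: siAkt1-22 and siAkt1-58, which carry different siRNAs against AKT1 and share the genotype label of an AKT1 knockdown, and siNT, a non-targeting siRNA that served as the control. The question put by the design is how the expression profile differs once AKT1 is knocked down. Whether each library is a culture of its own is not stated in the labels. P-values then measure only a spread between libraries, which may be technical and also holds any difference between the siAkt1 siRNAs. All differences below are log2 values of an siAkt1 library minus siNT unless stated otherwise.

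Autophagy encloses cytoplasm in a double membrane, the phagophore, which closes into an autophagosome and fuses with the lysosome, where acid hydrolases degrade the contents. The ULK kinase complex starts the process, the class III phosphatidylinositol 3-kinase complex that contains BECN1 marks the membrane, and a ubiquitin-like conjugation system attaches ATG8 proteins such as LC3 to it. AKT promotes mTORC1 activity, and mTORC1 at the lysosome phosphorylates ULK1 and the transcription factors TFEB and TFE3, holding autophagy and lysosomal gene expression down in fed cells. TFEB, TFE3 and MITF bind the CLEAR element, whose core is the E-box CACGTG, in the promoters of many lysosomal genes.

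The promoters of members that carry the extended E-box TCACGTGA are shown because that element links lysosomal genes to the TFEB family, and because the values of these members can be read beside it. RefSeq promoter windows (GRCh38.p14, 250 bases before to 50 bases after the annotated gene start) were found for 37 of the 43 genes. The letters TCACGTGA, which read the same on both strands, stood in 6 of these 37 windows (16.2%), against 276 of 27305 windows of all genes (1.01%) and 189 of 10414 windows of the genes tested here (1.81%). The shorter core CACGTG, which every TCACGTGA contains, stood in 9 of 37 (24.3%), against 7.27% of all windows and 9.54% for genes tested. Many members are lysosomal genes, the kind whose promoters the CLEAR element is known from. The higher shares among members are thus tied to the choice of genes, and they do not draw on the array values. The forkhead letters GTAAACA, searched on both strands, stood in 1 of 37 (2.70%), that of CTSL. They stood in 3.45% of all windows and in 2.33% of those of genes tested. The 4 windows below are cut to the 250 bases before the start, 5′ to 3′ along the gene, and capitals mark TCACGTGA and every CACGTG.
GAA, chr17:80101331-80101580, plus strand: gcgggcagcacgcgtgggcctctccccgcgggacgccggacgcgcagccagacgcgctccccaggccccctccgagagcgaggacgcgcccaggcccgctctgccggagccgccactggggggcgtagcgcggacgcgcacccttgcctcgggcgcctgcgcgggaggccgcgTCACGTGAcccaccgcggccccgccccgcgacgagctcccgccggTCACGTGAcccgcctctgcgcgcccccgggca
CTSA, chr20:45891085-45891334, plus strand: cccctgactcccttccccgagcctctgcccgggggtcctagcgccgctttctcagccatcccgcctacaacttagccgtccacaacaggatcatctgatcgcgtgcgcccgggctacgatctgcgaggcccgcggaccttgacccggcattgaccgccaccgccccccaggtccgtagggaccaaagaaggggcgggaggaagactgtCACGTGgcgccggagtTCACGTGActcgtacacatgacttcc
ATP6V0D1, chr16:67481158-67481407, minus strand: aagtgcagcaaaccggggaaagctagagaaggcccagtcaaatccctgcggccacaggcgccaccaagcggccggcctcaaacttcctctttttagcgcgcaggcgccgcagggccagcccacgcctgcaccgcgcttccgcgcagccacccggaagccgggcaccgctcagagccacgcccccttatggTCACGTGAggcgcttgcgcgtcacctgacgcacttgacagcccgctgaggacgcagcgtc
LAMP1, chr13:113296989-113297238, plus strand: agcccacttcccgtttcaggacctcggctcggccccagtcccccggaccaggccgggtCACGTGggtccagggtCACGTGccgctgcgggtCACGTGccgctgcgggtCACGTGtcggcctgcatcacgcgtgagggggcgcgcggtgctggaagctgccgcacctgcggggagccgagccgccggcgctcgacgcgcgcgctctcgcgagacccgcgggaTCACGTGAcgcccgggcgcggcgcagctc

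GAA, acid alpha-glucosidase, held TCACGTGA at 2 places, the first beginning 77 bases before the start. CTSA, the protective carboxypeptidase that stabilises lysosomal sialidase, held it 26 bases before the start with a further CACGTG upstream. ATP6V0D1, a subunit of the proton pump, held it 60 bases before the start. LAMP1, a main glycoprotein of the lysosomal membrane, held it 29 bases before the start and CACGTG at 5 places in all. The other 2 members with TCACGTGA in the full window were MCOLN1 and ATG3. Of the 6 members with these letters, 3 (GAA, CTSA and ATP6V0D1) read above siNT with both siRNAs. So did 19 of the 31 members whose window lacks them, and 30.9% of all genes tested. The counts rest on the brightest probe set of each gene. LAMP1 and MCOLN1 have other probe sets above siNT with both siRNAs, and ATG3 has none. A match of letters is a description of the window and not evidence of binding.

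AKT1 itself was the check of the labels: its value was 3.67 in the siAkt1-22 library and 3.47 in the siAkt1-58 library, and 6.75 in siNT. Its difference was -3.08 and -3.28, both knockdown values lay under the filter level of 3.93, the 30th percentile of gene means, and a dimmer probe set gave -1.23 and -1.29. Array medians were 4.59, 4.58 and 4.59 for siAkt1-22, siAkt1-58 and siNT. Of 7 measured epithelial markers, 6 lay above the filter level, EPCAM, CDH1, KRT5, KRT8, KRT18 and SFN, while KRT14 did not. Of 8 markers of other cell types, 6 lay under it, and PECAM1 and VWF, at 4.50 and 4.40, were equal in all 3 libraries. The siAkt1-22 library stood apart in some of its controls: the 24 poly-A spike probe sets had a median difference of -0.56 with siAkt1-22 and -0.013 with siAkt1-58, and ACTB read 9.03 with siAkt1-22 and 12.3 with siAkt1-58, against 12.1 with siNT. Other controls stood close to siNT: the 9 hybridisation control probe sets had medians of -0.041 and 0.080, and GAPDH was -0.054 and 0.016. The part of these shifts in the values below was not tested. In bulk RNA, fewer cells of a type and less RNA per cell cannot be told apart. With 3 arrays, their number limits the precision of every value.

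All 43 genes passed the filter on low values. With both siRNAs 26 of them (60.5%) read above siNT and 1 (ATG5) read below it, against 30.9% and 21.4% of the 12779 genes tested. Taken by library, 35 members were above siNT with siAkt1-22 (background 48.5%) and 4 below it (background 35.7%). In the siAkt1-58 library 30 were above (background 45.6%) and 10 below (background 37.0%). Among the 37 members above the 50th percentile of gene means, 24 were higher with both siRNAs (64.9%, background 33.8%), 6 of them by at least 1.5-fold (background 4.17%), and 1 was lower (background 25.2%). With arrays centred on their medians, 26 members lay above siNT with both siRNAs and 5 below it, against 29.2% and 38.4% of all genes. The median difference of the 43 genes was 0.43 with siAkt1-22 and 0.28 with siAkt1-58, where the median of all genes tested was 0 with either siRNA. Both differences of a gene use the same siNT library, so a high or low reading in siNT enters both.

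The sizes were modest. At least 1.5-fold higher with both siRNAs were 7 members (16.3%, background 3.20%): ULK1, PIK3C3, GABARAP, NBR1, MITF, GAA and NPC2. With all probe sets of a gene averaged, 3 members reached that size with both (ULK1, PIK3C3 and MITF; 7.14%, against 1.91% of all genes), and ULK1 and PIK3C3 have a single probe set. Lower by that much with both were 0 members (background 3.58%), and 0 were at least 2-fold higher (background 0.736%) or lower (background 1.17%) with both. By library, 16 members were at least 1.5-fold higher with siAkt1-22 (background 12.3%) and 12 with siAkt1-58 (background 6.58%). With siAkt1-22 alone, ULK1, BECN1, GABARAPL1 and NEU1 were at least 2-fold higher (4 members, 9.30%, background 4.40%) and none lower (background 5.97%). With siAkt1-58 alone, WIPI1 was at least 2-fold higher (2.33%, background 1.54%) and ARSB, whose value there lay under the filter level, at least 2-fold lower (2.33%, background 3.58%).

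No member passed the test across all genes, and neither did AKT1 itself, with differences of -3.08 and -3.28. With 1 residual degree of freedom the test can hardly call any gene, so its lack of calls does not show that members were unchanged. Limma's moderated test of the 2 siAkt1 libraries against siNT called 0 of 12779 genes after Benjamini-Hochberg adjustment (background 0.00%), and the lowest adjusted p of a member was 0.607. The unadjusted limma p was under 0.05 for 954 genes (7.47%) and for 6 of the 43 members: PIK3C3, NBR1, CTSA, NPC2, ATP6V0D1 and ATP6V1H, in which the siAkt1 libraries lay within 0.082 of each other. The fit has 1 residual degree of freedom, taken from the difference between the siAkt1 libraries. These carry different siRNAs, and the fit assumes that siNT varies as they do.

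**Figure D1:**
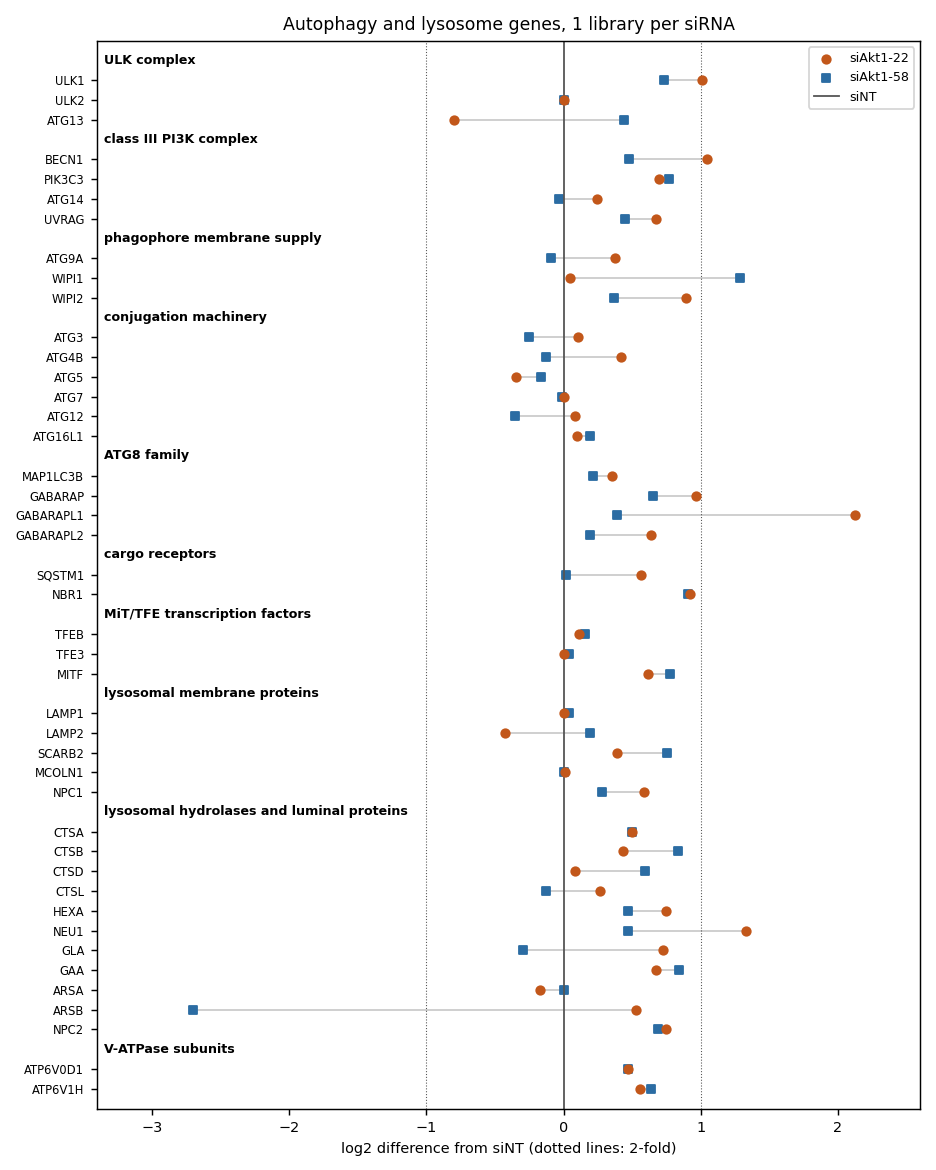
The log2 difference from siNT (x axis) of the 43 genes, grouped by role, with circles for siAkt1-22, squares for siAkt1-58, a line at 0 for siNT and dotted lines at 2-fold. Most points lie between 0 and 1, with GABARAPL1 at 2.12 (siAkt1-22) and ARSB at -2.70 (siAkt1-58) farthest out.

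**Figure D2:**
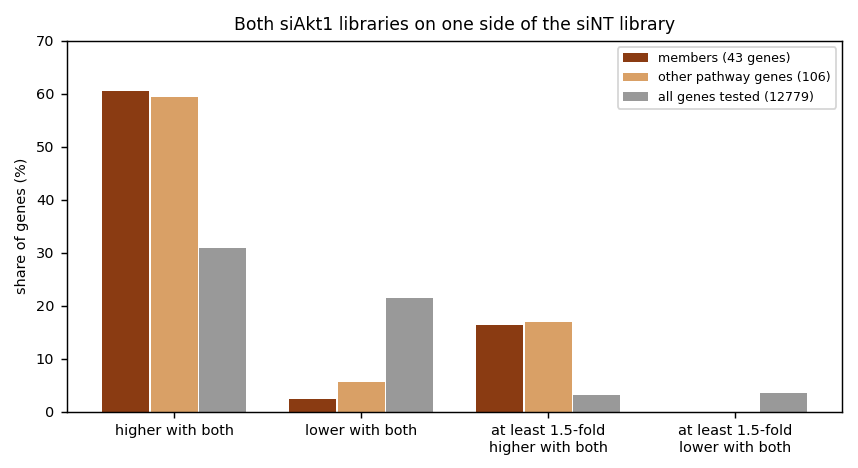
The share of genes (y axis, %) with both siAkt1 libraries on the same side of siNT, at any size and at 1.5-fold, for the 43 members, 106 other pathway genes and all 12779 genes tested. The members and the other pathway genes stand at 60.5% and 59.4% higher with both, and all genes tested at 30.9%.

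The ULK complex starts autophagosome formation. ULK1, its catalytic kinase, read 5.37 with siAkt1-22 and 5.10 with siAkt1-58, against 4.37 with siNT, which is 2.01-fold and 1.66-fold higher. Its only probe set was dim, with a mean of 4.95 over the 3 libraries. That lay under the 50th percentile of gene means, 5.21, so ULK1 drops out with that filter. The siAkt1 mean of 5.24 ± 0.19 (SD, n = 2) lay 0.87 above siNT, and the limma adjusted p was 0.700. ATG13, the scaffold that holds the complex together, split by siRNA: it read 5.78 with siAkt1-22 and 7.02 with siAkt1-58, against 6.58 with siNT. All 3 ATG13 probe sets, 1 of them under the filter level, were below siNT with siAkt1-22 and above it with siAkt1-58. ULK2, the paralogous kinase, read 4.01 in all 3 libraries, close to the filter level.

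In the class III PI3K complex, 3 of 4 members read above siNT with both siRNAs (background 30.9%). PIK3C3, the lipid kinase, read 7.16 with siAkt1-22 and 7.23 with siAkt1-58, against 6.46 with siNT, a mean difference of 0.73 with an SD of 0.053 between the siAkt1 libraries. BECN1, the regulatory subunit that BCL2 proteins restrain, read 10.6 and 9.98 in these libraries, against 9.50 with siNT, which is 2.07-fold and 1.39-fold higher. All 6 BECN1 probe sets were on the same side, between 0.82 and 1.19 with siAkt1-22 and between 0.30 and 0.52 with siAkt1-58. UVRAG, the subunit of the complex that acts in autophagosome maturation and endosomal traffic, was 0.67 and 0.45. ATG14, which directs the complex to autophagy, was 0.24 and -0.031.

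Among the genes for membrane supply, WIPI1, a phosphoinositide-binding protein of the phagophore, read 6.22 with siAkt1-22 and 7.46 with siAkt1-58, against 6.17 with siNT. It was 2.44-fold higher with siAkt1-58 and within 0.047 of siNT with siAkt1-22. Its dimmer probe set gave 0.42 and 1.43. WIPI2, which recruits the conjugation machinery to the phagophore, was 0.89 and 0.37, and ATG9A, the transmembrane scramblase that seeds the membrane, 0.37 and -0.092.

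The conjugation machinery had medians of 0.091 with siAkt1-22 and -0.15 with siAkt1-58 over 6 genes. Of these, 1 was above siNT with both siRNAs (background 30.9%). ATG16L1, which places the conjugation complex on the membrane, was 0.096 and 0.19. ATG5, the protein that ATG12 is joined to, was -0.35 and -0.16 in its brightest probe set, while a second was equal in all 3 libraries and its dimmest gave -0.37 and 0.55. ATG3, the E2-like enzyme for LC3, was 0.11 and -0.25. ATG12 was 0.087 and -0.35 in its brightest probe set, and -0.13 and -0.21 in its other. ATG7, the E1-like enzyme, stood within 0.015 of siNT in its brightest probe set. A second ATG7 probe set was equal in all 3 libraries, and its dimmest gave 0.66 and 0.23. ATG4B, the protease that primes and recycles ATG8 proteins, was 0.42 and -0.13 in its brightest probe set, yet its 5 dimmer probe sets were all above siNT with both siRNAs, up to 1.35 and 0.71.

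All 4 ATG8 family members, the ubiquitin-like proteins coupled to the autophagosome membrane, were above siNT with both siRNAs (background 30.9%). In each the siAkt1-22 value was the higher. GABARAPL1 read 9.49 with siAkt1-22 and 7.75 with siAkt1-58, against 7.37 with siNT, a 4.36-fold and a 1.31-fold difference. Its other probe sets above the filter level gave 1.89 and 0.45, and 1.45 and 0.43. GABARAP read 10.4 and 10.1 in the siAkt1 libraries, against 9.45 with siNT, which is 1.95-fold and 1.57-fold higher. A second bright GABARAP probe set gave 0.99 and 0.68, but its other 2 gave 0.44 and 0.048, and 0.040 with either siRNA, and averaging gave 0.61 and 0.36. GABARAPL2 was 0.64 and 0.19, and MAP1LC3B, the gene of LC3B, 0.35 and 0.21. A further probe set shared by MAP1LC3B and its pseudogene MAP1LC3BP1 was left out of the gene values and gave 0.34 and 0.13.

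Both cargo receptors were above siNT with both siRNAs (background 30.9%). NBR1, which tethers ubiquitinated cargo to ATG8 proteins, read 7.35 with siAkt1-22 and 7.34 with siAkt1-58, against 6.43 with siNT, a mean difference of 0.91 where the siAkt1 libraries differed by 0.011. Averaging its 6 probe sets gave smaller values of 0.57 and 0.49. SQSTM1, the gene of the receptor p62 that autophagy itself degrades, was 0.57 with siAkt1-22 and 0.015 with siAkt1-58, and its other 4 probe sets were also above siNT with both. These are mRNA levels and do not measure autophagic flux.

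**Figure D3:**
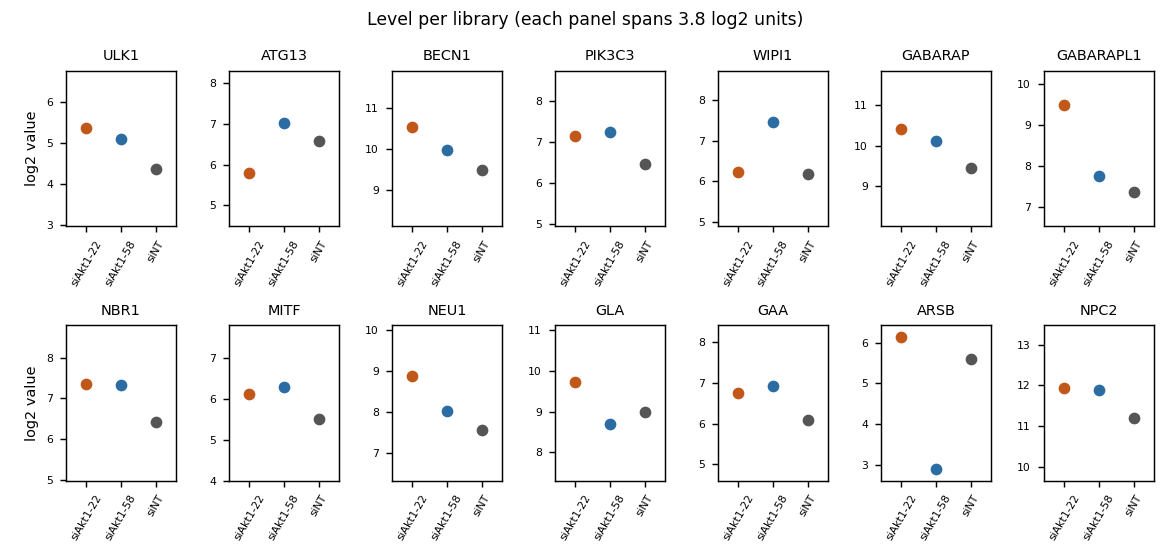
The log2 value (y axis, each panel 3.8 units tall) in the siAkt1-22, siAkt1-58 and siNT libraries for the 14 members at least 1.5-fold from siNT with both siRNAs, at least 2-fold from it with either, or at least 2-fold apart between the siRNAs. In ULK1, BECN1, PIK3C3, GABARAP, GABARAPL1, NBR1, MITF, NEU1, GAA, NPC2 and WIPI1 the siNT point is the lowest, whereas in ATG13, GLA and ARSB it lies between the siAkt1 points.

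The transcription factor genes differed among themselves. MITF, best known from melanocytes and a relative of TFEB, read 6.13 with siAkt1-22 and 6.29 with siAkt1-58, against 5.51 with siNT, which is 1.53-fold and 1.71-fold higher. Its other probe set gave 0.63 with either siRNA, and the limma adjusted p was 0.663. TFEB was 0.11 and 0.16 and TFE3 0 and 0.037, both at dim levels near 5.04 and 4.46. The proteins of this family are controlled largely by phosphorylation, which arrays do not read.

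At the lysosomal membrane, SCARB2, the receptor that carries glucocerebrosidase to the lysosome, was 0.39 and 0.76, and NPC1, the cholesterol exporter, 0.59 and 0.28. LAMP1 stood within 0.041 of siNT in its brightest probe set, with 0.11 and 0.22, and 0.057 and 0.11, in the others. MCOLN1, a lysosomal calcium channel that TFEB regulates, stood within 0.012 of siNT in its brightest probe set, with 0.73 and 0.047 in the other. LAMP2, needed for autophagosome fusion, was -0.43 and 0.19 in its brightest probe set. Its 8 probe sets above the filter level did not point the same way: 1 was higher with both siRNAs (0.24 and 0.60), and 3 were lower with both, by up to -1.15 and -0.79. Which LAMP2 transcripts these probe sets read is not given by the annotation used here.

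Lysosomal hydrolases and luminal proteins had medians of 0.53 with siAkt1-22 and 0.47 with siAkt1-58. Above siNT with both siRNAs were 7 of 11 (background 30.9%). NPC2, the luminal partner that hands cholesterol to NPC1, read 11.9 and 11.9 in the siAkt1-22 and siAkt1-58 libraries, against 11.2 with siNT, 1.68-fold and 1.61-fold higher. GAA read 6.75 and 6.92, against 6.08 with siNT, 1.59-fold and 1.79-fold higher. A second bright NPC2 probe set gave 0.72 and 0.66, and its other 2 were dim, equal in all libraries or -0.12 with both siRNAs. The only other GAA probe set, under the filter level, gave 0 and -0.23. Averaging all probe sets gave 0.34 and 0.31 for NPC2 and 0.34 and 0.30 for GAA.

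NEU1, the lysosomal sialidase, read 8.89 with siAkt1-22 and 8.02 with siAkt1-58, against 7.56 with siNT, 2.51-fold and 1.38-fold higher in its only probe set. CTSA was 0.50 with either siRNA. The cathepsin genes CTSB (0.43 and 0.83) and CTSD (0.081 and 0.60) stood farther from siNT with siAkt1-58, with all 4 and all 3 of their probe sets above siNT. CTSL was 0.26 and -0.12. HEXA, a beta-hexosaminidase subunit, was 0.74 and 0.47, with 7 of 8 probe sets above siNT with both siRNAs.

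Among hydrolases that differed between the siRNAs, GLA, alpha-galactosidase A, read 9.72 with siAkt1-22 and 8.70 with siAkt1-58, against 8.99 with siNT, and a second probe set gave 0.80 and -0.26. ARSB, arylsulfatase B, read 6.13 with siAkt1-22 and 2.91 with siAkt1-58, against 5.61 with siNT. The siAkt1-58 value lay under the filter level, which ARSB passed through the other libraries. Set against that level instead of the value itself, ARSB with siAkt1-58 was at least 3.19-fold lower than siNT and at least 4.59-fold lower than siAkt1-22. That ARSB value comes from 1 probe set, since the other 3 lay under the filter level in the mean and within 0.073 of siNT. Averaging all 4 gave 0.12 and -0.70. ARSA, arylsulfatase A, was dim and stood at -0.17 and 0.

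Both V-ATPase subunits, parts of the proton pump that acidifies the lysosome, were above siNT with both siRNAs (background 30.9%). The amount was nearly the same with either siRNA. ATP6V1H read 8.68 with siAkt1-22 and 8.76 with siAkt1-58, against 8.12 with siNT. ATP6V0D1 read 10.1 in both siAkt1 libraries, against 9.59 with siNT, a difference of 0.47 with either, and 6 of its 7 probe sets were above siNT with both. The 29 members outside the 14 shown in the plot of levels per library ranged from -0.43 to 0.89 with siAkt1-22 and from -0.35 to 0.83 with siAkt1-58.

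The members were also read across all their probe sets. Of 152 probe sets, 133 lay above the filter level, and of these 88 were above siNT with both siRNAs (66.2%), 6 below it with both (4.51%) and 8 equal in all 3 libraries (6.02%). Over all 28249 single-gene probe sets above that level, the shares were 29.4%, 23.0% and 10.0%. Probe sets of a gene read the same 3 libraries, and genes with many probe sets weigh more. The count by probe set is therefore not independent of the count by gene. Among the 32 genes with at least 2 probe sets above the filter level, all of them were higher with both siRNAs in 14 genes. Agreement among probe sets of a gene was not counted over all genes, so that count has no background and is not read as a trait of the members. In 2 genes, LAMP2 and NBR1, probe sets lay on both sides, although the lower NBR1 probe set differed by only -0.040 and -0.054.

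**Figure D4:**
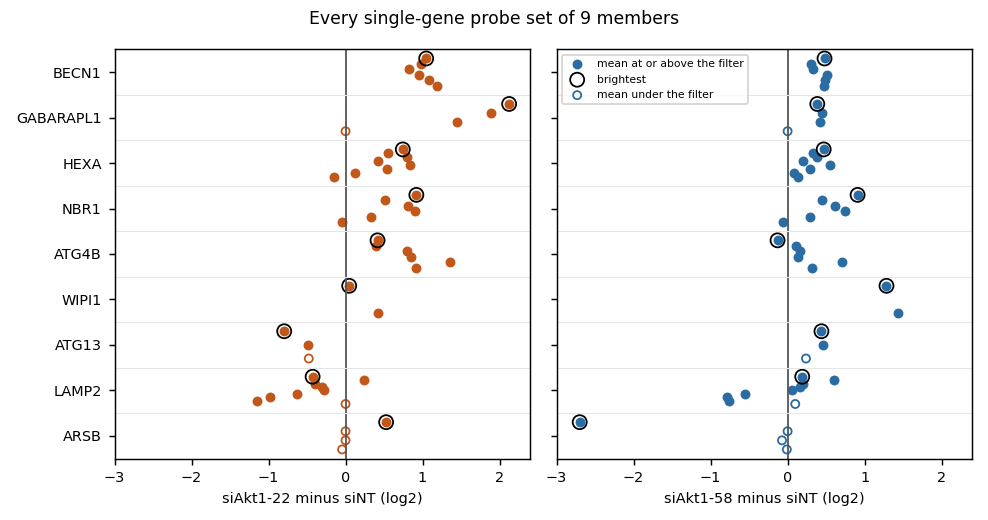
The difference from siNT (x axis, log2) of every single-gene probe set of 9 members, for siAkt1-22 on the left and siAkt1-58 on the right. Filled points have a mean at or above the filter level, open points lie under it, and a black ring marks the brightest probe set of the gene. BECN1 probe sets cluster, LAMP2 probe sets lie on both sides of 0, and a single ARSB probe set lies at -2.70 with siAkt1-58.

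The siRNAs were set against each other directly, without siNT. Of the 43 members, 5 (11.6%) were at least 2-fold apart, against 10.3% of all genes tested, a share near the background. GABARAPL1, GLA and ARSB read higher with siAkt1-22, by 1.74, 1.02 and a measured 3.23, whereas ATG13 and WIPI1 read lower with siAkt1-22, by -1.24 in each. Opposite sides of siNT were taken by 10 members (23.3%), against 25.6% of all genes tested. With 1 library per siRNA these differences have no test.

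The other genes of the pathway, a list also chosen with earlier results of these data known, gave similar counts. Of 119 listed, 110 were measured and 106 passed the filter. With both siRNAs 63 (59.4%, background 30.9%) were above siNT and 6 (5.66%, background 21.4%) below it. At least 1.5-fold higher with both were 18 of the 106 genes (background 3.20%), and lower by that much 0. The medians were 0.35 with siAkt1-22 and 0.30 with siAkt1-58. After limma's adjustment 0 genes passed, and 14 had an unadjusted limma p under 0.05 (13.2%, background 7.47%).

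SLC17A5, the lysosomal sialic acid exporter, and IGF2R, the mannose 6-phosphate receptor that sorts hydrolases, were the 2 genes at least 2-fold higher with both siRNAs (1.89%, background 0.736%). SLC17A5 read 7.70 with siAkt1-22 and 7.21 with siAkt1-58, against 5.97 with siNT, and its other 4 probe sets lay on the same side. IGF2R read 9.17 and 9.33, against 8.14 with siNT, and its other 2 probe sets gave 0.88 and 1.03, and 0.38 and 0.60. With probe sets averaged, 0 of the 106 reached 2-fold with both, and the share of all genes was not computed for that setting. Among the other membrane and sorting genes 8 of 17 were above siNT with both siRNAs (background 30.9%).

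Other hydrolases and luminal proteins were above siNT with both siRNAs in 18 of 25 genes (background 30.9%), 9 of them by at least 1.5-fold (background 3.20%). MANBA, beta-mannosidase, was 0.93 and 1.30, and CTSH, an aminopeptidase cathepsin, 1.19 and 0.94, but a dim second CTSH probe set gave 0.018 and 0.030. Other V-ATPase subunits were above siNT with both siRNAs in 11 of 14 genes (background 30.9%). ATP6V1A, the catalytic subunit, was 0.62 and 0.64 and ATP6V1B2 0.60 and 1.07, with all 5 and all 3 of their probe sets on the same side.

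Other autophagy machinery was closer to the background, with 12 of 29 genes above siNT and 3 below it with both siRNAs (background 30.9% and 21.4%). ATG2A, a lipid transfer protein of the growing phagophore, was 1.38 and 0.81, and VAMP8, the fusion SNARE of the lysosome, 0.67 and 0.78. STX17, the autophagosomal partner of VAMP8, was -1.30 with siAkt1-22 and 0.20 with siAkt1-58. STX17, the sulfatase gene IDS and OSTM1 were the 3 genes at least 2-fold lower with siAkt1-22 (2.83%, background 5.97%), and they were chosen for mention after their values were seen. IDS was -1.12 and 0.74, and OSTM1 -1.65 and 0.72. At least 2-fold higher with siAkt1-22 were 14 of the 106 genes (13.2%, background 4.40%). With siAkt1-58, 9 were at least 2-fold higher (8.49%, background 1.54%) and 0 at least 2-fold lower (background 3.58%).

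Genes of mTORC1 and nutrient sensing were above siNT with both siRNAs in 14 of 21 cases (background 30.9%). RPTOR, the mTORC1 scaffold, was 0.77 and 1.09, with 0.15 and 0.15 in the next probe set. TSC1, a restraint on mTORC1, was 0.62 and 0.66 in its brightest probe set and -0.46 and 0.21 in the next. In their brightest probe sets, the scaffold and the restraint were both above siNT with both siRNAs.

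**Figure D5:**
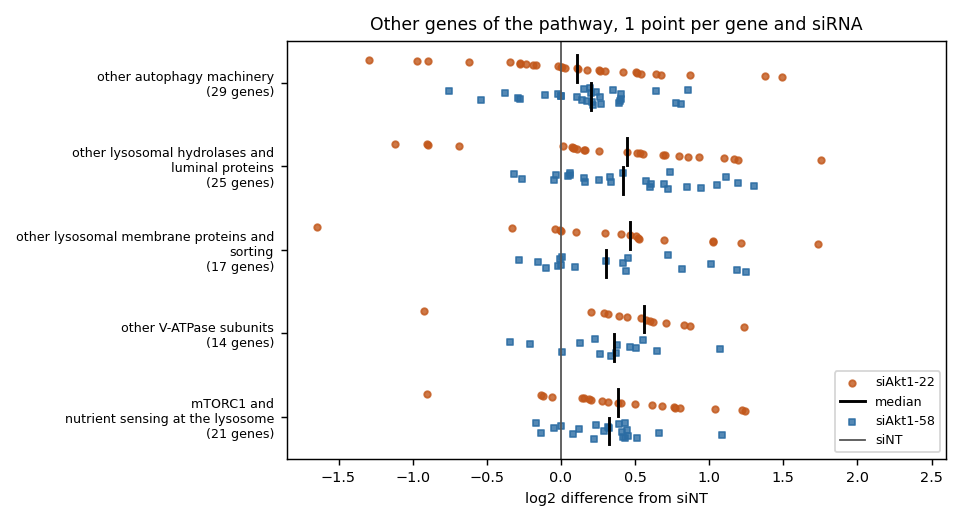
The log2 difference from siNT (x axis) of 106 other pathway genes in 5 role groups, 1 point per gene and siRNA, with a bar at the median of each group. Medians of the 2 lysosomal groups, the V-ATPase and the mTORC1 group lie between 0.30 and 0.56, and those of the autophagy machinery at 0.11 and 0.20.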

How the data were processed

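The deposited table holds log2 expression values per probe set for 3 Affymetrix GeneAtlas arrays, 1 per siRNA. RMA, which corrects background, equalises arrays and summarises probes, is named in the submitters' processing notes, while the sources used here give neither its version nor its settings. The log2 scale follows from the range of the values. Exact ties are frequent: 11.1% of genes tested were equal in all 3 libraries. No detection calls were used.

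Of 49386 probe sets, 45253 carried 1 gene in the platform annotation, with symbols updated through Entrez identifiers. 1327 carried several genes, 2713 were unlisted and 93 were controls, and none of these entered the gene values. The brightest probe set stood for each of 18239 genes, and tests covered the 12779 whose mean reached the 30th percentile. The lmFit and eBayes functions of limma 3.58.1, run in R 4.3.3 (two-sided p, adjusted by Benjamini-Hochberg across the 12779 genes and called under 0.05) compared the 2 siAkt1 libraries with siNT. Counts by size use a log2 difference of at least 1 (2-fold) or 0.585 (1.5-fold). The scripts were tested on simulated data.

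Members and gene lists were chosen with earlier results of these data known. Values in every library are given for members at least 1.5-fold from siNT with both siRNAs in 1 direction, at least 2-fold with either, or at least 2-fold apart between siRNAs. For the wider list, up to 2 genes per role and direction are named. No promoter window was found for UVRAG, LAMP2, CTSB, HEXA, ARSA and ATP6V1H. Alternatives were averaged probe sets, median centring, quantile normalization, other filters, 1.5-fold, an intensity trend in eBayes and leaving out each siAkt1 library. A margin of 0.1 around siNT, and the alternatives to the 1.5-fold count, were added after seeing the data.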

Additional observations from a re-analysis of the deposited data

How the results depend on the processing

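The number of members above siNT with both siRNAs was 26 as reported and between 22 and 31 under the alternatives that use both siAkt1 libraries, within 1.5 times in each. Leaving out a siAkt1 library gives the count of the other library alone and does not check this one: it was from 30 to 35. As a share of members tested it was 73.8% with averaged probe sets (all genes 34.2%), 69.8% after quantile normalization (all genes 41.8%), 64.9% with a filter at the 50th percentile (all genes 33.8%) and 51.2% with a margin of 0.1 (all genes 21.0%). Members below siNT with both numbered 1 as reported, 2 when probe sets were averaged and 5 after centring each array on its median, where 26 stood above. Without a siAkt1 library they numbered from 4 to 10. Members at least 1.5-fold higher with both numbered 7 as reported, 3 with averaged probe sets, from 6 to 8 under the other alternatives with both libraries, and from 12 to 16 in 1 library alone. Members at least 2-fold higher numbered 7 with a limit of 1.5-fold, and from 1 to 4 without a siAkt1 library. Members at least 2-fold lower numbered from 0 to 1 without a siAkt1 library. Members at least 2-fold apart between the siRNAs numbered 2 with averaged probe sets, against 5. The share of all genes was not computed for that setting, so the fall is not read as a result about the members. Other pathway genes at least 2-fold higher numbered 0 with averaged probe sets, where the share of all genes was not computed, and 18 with a limit of 1.5-fold (background 3.20%). In 1 library alone they numbered 14 with siAkt1-22 (background 4.40%) and 9 with siAkt1-58 (background 1.54%). Those at least 2-fold lower numbered 3 with siAkt1-22 (background 5.97%) and 0 with siAkt1-58 (background 3.58%). Limma called 0 genes under each of the 5 alternatives run, and leaving out a siAkt1 library leaves 1 library per group and no limma test. With averaged probe sets, 8 of 28 differences of the 14 members with all values given moved by at least the SD between siAkt1 libraries. After quantile normalization 2 did and with median centring 1 did, and none changed sign. Each gene has its own SD, so a small move can count and a large one may not. With siAkt1-22, NBR1 counted as moved at 0.92 against 0.90 after median centring. With siAkt1-58, ARSB did not at -2.70 against -0.70 with averaged probe sets. The cause of these moves was not tested. No paired analysis was possible because both siAkt1 libraries share 1 siNT library. Dim values near the floor of the arrays can understate differences.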
